A study of Mus musculus with 40 samples.

Results

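The genes described here encode the proteins of the cytosolic ribosome. They were taken by name from the deposited expression files: every gene whose name, without the suffixes that the files add, begins with Rpl or Rps and a digit, or with Rplp and a digit, or is Rpsa, leaving out the S6 kinase names that begin with Rps6k. The rule took 95 of the 24732 genes in each file. Of these, 46 are names of large subunit proteins and 31 of small subunit proteins, 10 are paralogs or other names that the pattern takes in, and 8 are pseudogenes. All 95 were followed, 91 were above 0 in at least 1 library, and Rpl34-ps1, Rps27rt, Rps19-ps1 and Rplp2-ps1 were listed at 0 in all of them. Fau and Gnb2l1 (now Rack1) also encode ribosomal proteins but carry other names, so they are not among the 95 and are given separately. The files mark 16 of the 95 as overlapping another gene model, 13 of them among the 77 subunit proteins, and the values of those genes are uncertain.

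The study asked what the transcription factor Ikaros does in B cell anergy and in Toll-like receptor signalling. RNA was sequenced from 28 samples of follicular (FO) B cells, sorted by FACS from C57BL/6 mice that all carried the MD4 transgene, which encodes a B cell receptor for hen egg lysozyme (HEL). The Cd23-cre transgene deletes floxed Ikzf1 alleles (fl), the gene of Ikaros, from a late stage of B cell development on. The other states sampled were these: 1 day after HEL given i.v., anergy in MD4 mice with a second transgene, ML5, from which HEL circulates as a self-antigen, and 1 day of stimulation in vitro with CpG, a DNA ligand of Toll-like receptor 9. Libraries are numbered, and those whose numbers share the leading digits 36, 57 or 49 are referred to as a series.

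Naive cells of series 36 came from Cd23-cre Ikzf1(fl/-) mice (2 samples) and Cd23-cre Ikzf1(fl/+) mice (2 samples). Naive cells of series 57 came from Ikzf1(fl/+) mice without Cre (2 samples) and from a Cd23-cre Ikzf1(fl/+) mouse (1 sample), and these 3 served as the naive controls of that series. The HEL samples, all of series 57, came from Ikzf1(fl/fl) mice without Cre (5 samples) and Cd23-cre Ikzf1(fl/fl) mice (5 samples), so Cre and the loss of Ikaros cannot be told apart there. The 3 anergic samples, also of series 57, differed in genotype: replicate 1 was Ikzf1(fl/fl) without Cre, replicate 2 Ikzf1(fl/+) without Cre and replicate 3 Cd23-Cre Ikzf1(fl/+). The CpG samples came from Cd23-cre Ikzf1(fl/-) (4 samples) and Cd23-cre Ikzf1(fl/+) (4 samples) mice, and they alone make up series 49, so the effect of CpG and that of the library series cannot be told apart. Whether each sample of a group is a different animal is not stated in the labels, and p-values therefore measure only how far these samples spread, part of which may be technical.

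A ribosome has a small subunit, which reads the mRNA, and a large subunit, which forms the peptide bond, and each copy needs 1 of nearly every protein. The genes of these proteins are among the most highly expressed of any cell. Their mRNAs start with a C followed by a run of C and T, the 5' terminal oligopyrimidine (TOP) motif, and TOP mRNAs are translated or held back together under the kinase mTOR and the RNA-binding protein Larp1. Resting B cells are small and make little protein, and activation is known to raise ribosome production. Mammalian genomes hold many processed pseudogenes of ribosomal protein genes, near-copies to which short reads can also map.

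Start sites are shown because TOP mRNAs are defined by their first bases. RefSeq windows on build GRCm38.p6, from 250 bases before to 50 bases after the first base, were given for 57 of the 77 subunit genes, 67 windows in all. The windows below, 30 bases before the annotated start and the first 20 of the transcript, belong to 2 of the 5 members with the highest levels, Rps9 and Rps21, and to the members with the largest called difference after HEL (Rps6), after Ikaros loss with HEL (Rps23) and after Ikaros loss with CpG (Rpl13). Capitals mark a C followed by 4 or more C or T that begins within 10 bases of the start. All are written 5′ to 3′ on the strand of the gene.
Rps9, chr7:3704011-3704060, plus strand: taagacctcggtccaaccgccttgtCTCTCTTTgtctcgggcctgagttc
Rps21, chr2:180257349-180257398, plus strand: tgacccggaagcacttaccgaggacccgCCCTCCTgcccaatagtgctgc
Rps21, second annotated start, chr2:180257419-180257468, plus strand: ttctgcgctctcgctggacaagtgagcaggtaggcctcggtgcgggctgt
Rps6, chr4:86857348-86857397, minus strand: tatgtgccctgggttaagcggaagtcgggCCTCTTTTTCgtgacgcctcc
Rps23, chr13:90923092-90923141, plus strand: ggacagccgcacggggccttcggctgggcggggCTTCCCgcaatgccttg
Rpl13, chr8:123102320-123102369, plus strand: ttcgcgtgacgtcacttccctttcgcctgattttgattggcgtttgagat
In the Rps6 window the pyrimidine run begins 1 base before the annotated start and is 10 bases long, and in the first Rps21 window it begins 2 bases before and is 7 bases long, so both hold the motif at the start base. The Rpl13 window and the second Rps21 window hold no such run that begins within 10 bases of the start. Both hold one further upstream, which is not marked.

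A C followed by 4 C or T at the start base itself was present in 13 of the 67 windows (19.4%), against 2.5% of all 32851 windows in the table. Beginning anywhere within 10 bases of the start, it was in 53.7% of the members' windows and 30.7% of all. CTTTC near the start, a form it often takes, was in 20.9% against 3.1%. On either strand of the whole window, CCGGAAG, the core to which ETS factors bind, was in 37.3% against 8.9%, and GGGAA, the core of the Ikaros motif, was in 68.7% against 62.7%. These matches are descriptions of letters, and windows of 1 gene can overlap.

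Whole reads could be recovered from the deposited values, and the libraries held 12126702 to 25424364 reads. Ikzf1 was at 195 to 261 TPM, the length-corrected unit of the files, in the 5 HEL libraries without Cre and at 60.3 to 79.3 TPM in the 5 with Cre. With CpG it was at 135 to 172 TPM in Cd23-cre Ikzf1(fl/+) and at 31.7 to 39.5 TPM in Cd23-cre Ikzf1(fl/-), and in naive cells of series 36 at 120 and 136 TPM against 57.3 and 65.3 TPM, so no pair of groups overlapped. Reads outside the deleted part of the gene would still be counted. All 11 follicular B cell markers were at 1 TPM or more in all libraries, with summed levels of 8489 to 12336 TPM in the CpG libraries and 24644 to 38445 TPM elsewhere. Of the marker lists of other cells, the summed level was at most 15.7 TPM for 6 T cell markers, 72.3 to 175 TPM for 4 plasma cell markers and 25.4 to 199.6 TPM for 3 marginal zone B cell markers. The 4 naive libraries of series 36 held 21.3 to 83.5 TPM of 6 neutrophil markers and 25.8 to 43.2 TPM of 6 cytotoxic markers, against at most 0.69 and 22.8 TPM in series 57. Neutrophil markers reached 122 TPM in 1 CpG library. The part of these cells in the results was not tested, and in bulk samples fewer cells of a type and less RNA per cell cannot be told apart.

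The subunit genes differed widely in level. Levels are given in TPM, which corrects for gene length but not for reads shared with pseudogenes or overlapping models, so the order of single genes is that of the files. Rplp1, a protein of the stalk that recruits elongation factors, had the highest mean over the 28 libraries, 15964.5 TPM, followed by Rps29 at 13052.5 TPM, Rps9 at 12929 TPM, Rpl8 at 10443 TPM and Rps21 at 10051.5 TPM. The other end was held by Rpl26 at 0.017 TPM, Rpl5 at 2.06 TPM, Rps27 at 8.16 TPM and Rps23 at 12.2 TPM. Of the 77 subunit genes, 39 were above 1000 TPM, 17 were below 100 TPM and 10 below 30 TPM, with a median of 1036 TPM. The 10 highest genes made up 52.9% of the summed level of all members.

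Genes with many named pseudogenes had low values. The 15 subunit genes without a named pseudogene in the RefSeq table had a median of 5325 TPM and none was below 100 TPM. The 38 with 1 to 4 had a median of 1269 TPM, with 8 below 100 TPM, and the 24 with 5 or more had a median of 147 TPM, with 9 below 100 TPM. Over the 77 genes the rank correlation of level and number of named pseudogenes was -0.59, given as a description: the genes share libraries and annotation. Rps12 has 23 named pseudogenes and was at 157 TPM, Rpl31 has 23 and was at 48.2 TPM, and Rpl7a has 14 and was at 552 TPM. How reads that map to several places were counted was not given in the sources used here, and the part of multiple mapping in these levels was not tested. Rpl5, Rpl26 and Rps27 are also marked as overlapping another gene model. Low genes rest on few reads: the median over libraries was 36 reads for Rpl5, 52 for Rps23 and 914 for Rps6, against 68404.5 for Rplp1.

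**Figure D1:**
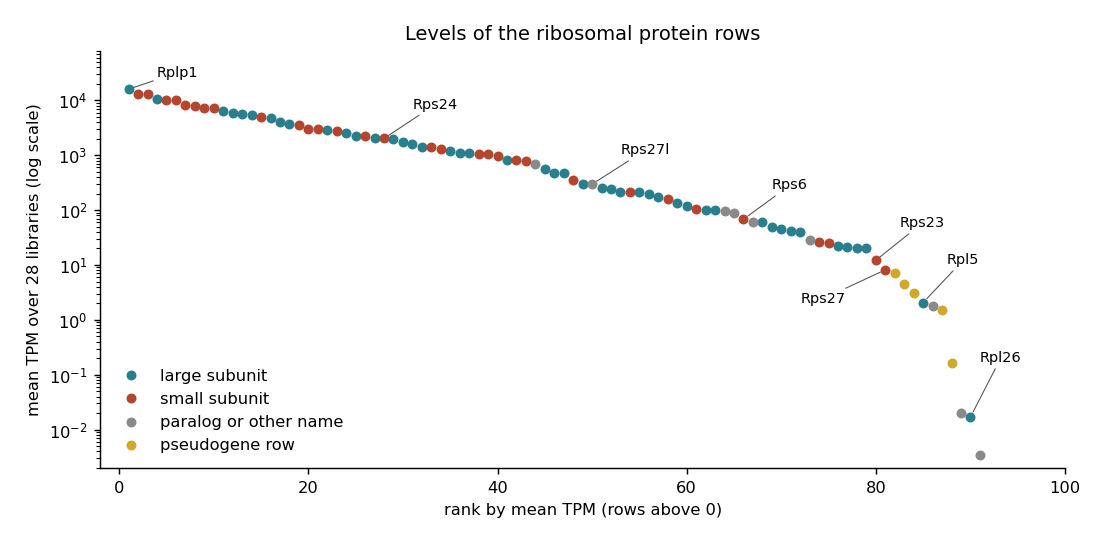
Mean TPM over the 28 libraries (vertical axis, log scale) of the 91 genes above 0, in order of level (horizontal axis), with large subunit, small subunit, paralog and pseudogene rows in separate colours. The levels run from 15964.5 TPM for Rplp1 to under 0.1 TPM for Rpl26.

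The 10 paralogs and other names lay mostly below their counterparts. Rpl36al, a copy of the X-linked Rpl36a, was at 695 TPM against 1979 TPM, and Rpl22l1, the copy of Rpl22, was at 61.4 TPM against 477 TPM. Rps27l, which p53 is known to induce, was at 297 TPM against 8.16 TPM for Rps27, the reverse order. Rps4l, an autosomal copy of the X-linked Rps4x, was at 28.6 TPM and Rpl7l1, a nucleolar relative of Rpl7, at 97.9 TPM. Rps19bp1, at 90.5 TPM, encodes a protein that binds Rps19 and is not part of the ribosome. The copies known from testis and muscle were near 0, with Rpl39l at 1.81 TPM, Rpl3l at 0.020 TPM and Rpl10l at 0.0034 TPM. Among the pseudogenes, Rps19-ps3 was at 7.29 TPM, Rps15a-ps6 at 4.41 TPM, Rpl31-ps12 at 3.04 TPM, Rps15a-ps4 at 1.49 TPM and Rps19-ps2 at 0.16 TPM.

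Together the 95 genes took up 14.4 to 24.5% of all TPM in a library. After 1 day of HEL the share was 22.2, 23.5, 21.6, 23.6 and 23.0% in the 5 libraries without Cre, with a mean of 22.8% ± 0.86 (SD, n = 5). The 3 naive libraries of the same series were at 15.6, 14.4 and 14.7%, with a mean of 14.9% ± 0.61 (SD, n = 3). The groups did not overlap, and the HEL mean was 1.53 times the naive mean, 7.87 percentage points higher. The anergic libraries were at 16.9, 15.1 and 18.7%, with a mean of 16.9% ± 1.80 (SD, n = 3). They overlapped the naive libraries and lay below all HEL libraries without Cre, with a mean 5.85 points below theirs.

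The groups with and without loss of Ikaros overlapped in this share in each state. With HEL it was 22.5% ± 1.08 (SD, n = 5) with Cre, 0.32 points below the libraries without Cre, and the groups overlapped. With CpG it was 16.5% ± 0.63 (SD, n = 4) in Cd23-cre Ikzf1(fl/-) and 16.9% ± 0.78 (SD, n = 4) in Cd23-cre Ikzf1(fl/+), which also overlapped. Naive cells of series 36 were at 22.3 and 24.5% in Cd23-cre Ikzf1(fl/-) and at 22.4 and 20.2% in Cd23-cre Ikzf1(fl/+), a difference in means of 2.09 points with overlapping libraries, and of 0.98 to 3.21 points when 1 library was left out. Counted in reads, where short genes weigh less, the members made up 4.96 to 10.3% of a library, and the difference between HEL and naive was 3.52 points.

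**Figure D2:**
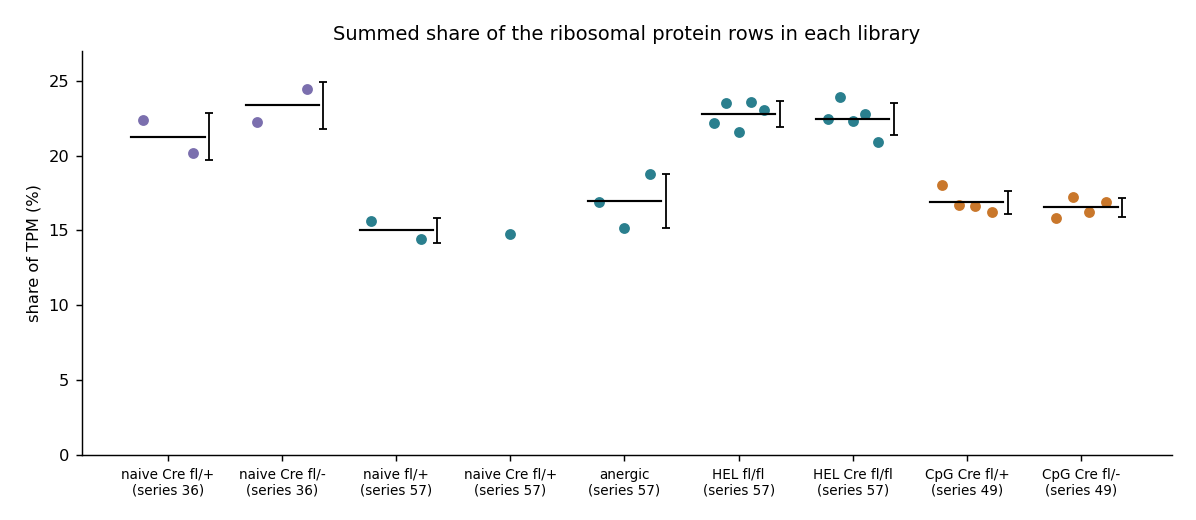
Share of all TPM (vertical axis, %) taken up by the 95 ribosomal protein genes in each of the 28 libraries, by group (horizontal axis), with colours for the library series. Points are libraries, horizontal lines group means and error bars SD. The HEL libraries without Cre lie between 21.6 and 23.6%, above the naive libraries of the same series at 14.4 to 15.6%, while the naive libraries of series 36 lie at 20.2 to 24.5%.

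The share also differed between library series. Cd23-cre Ikzf1(fl/+) naive cells were at 22.4 and 20.2% in series 36 and at 14.7% in series 57, a state and genotype that both series hold. Of 75 members compared between the fl/+ naive libraries of the series, 53 (70.7%) were higher in series 36 without overlap, against 7.85% of 8481 other genes, and the members' median log2 difference was 0.37 against -0.21. Of the other genes, 50.3% were lower in series 36. The comparisons of HEL, anergic and naive cells below stay within series 57, whereas those that set CpG libraries against others cross series. The ratio of the summed small subunit genes to the summed large subunit genes was 1.21 to 1.35 outside CpG, 1.175 and 1.177 in the first 2 CpG Cd23-cre Ikzf1(fl/-) libraries and 1.06 to 1.09 in the other 6 CpG libraries.

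HEL raised most ribosomal protein mRNAs relative to the naive state. The comparison asks how the cells respond to 1 day of antigen in vivo, and it set the 5 HEL libraries without Cre against the 3 naive libraries of series 57. Each gene was tested with limma on log2(TPM + 1) and called at a Benjamini-Hochberg adjusted p under 0.05 over all genes tested. Of 87 members tested, 73 were called higher and 2 lower, where 9.92% of all 10448 genes tested were called higher and 38.1% lower. The members' median log2 difference was 0.62 and that of all genes -0.16. For 69 members all HEL libraries lay above all naive ones, against 9.04% of all genes, and for 2 they lay below, against 37% of all genes. TPM is a share of each library, and the members hold a large part of it: after scaling by median ratios the median of all genes was 0.01, that of the members 0.80, and 78 members were called higher and 0 lower, while the calls over all genes moved from 1036 higher and 3979 lower to 2214 and 2004. The HEL mice were Ikzf1(fl/fl) and the naive mice Ikzf1(fl/+), and this difference in genotype cannot be told apart from HEL. Several marker lists were lower with HEL without overlap: follicular B cell markers summed to 24644 to 26619 TPM against 32036 to 38445 TPM, plasma cell markers to 72.3 to 94.3 TPM against 103 to 114 TPM, macrophage markers to 11.1 to 14.7 TPM against 18.5 to 38.0 TPM and cytotoxic markers to 9.81 to 12.6 TPM against 13.4 to 18.2 TPM. Their part in the result was not tested.

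The rise covered both subunits. Of the large subunit genes 42 of 45 tested were called higher, with a median of 0.65, and of the small subunit genes 26 of 31, with a median of 0.60. No subunit gene was called lower. The 3 stalk genes, Rplp0, Rplp1 and Rplp2, which form the arm that binds elongation factors, were all higher without overlap.

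Rplp0 anchors the stalk to the ribosome. Its level was 4538, 4688, 4267, 5188 and 4295 TPM in the HEL libraries and 2118, 1958 and 2123 TPM in the naive ones, so all HEL libraries lay far above all naive ones. The log2 difference was 1.15 ± 0.07 (SE), with adjusted p = 4.91e-06 by limma. Its partners Rplp1 and Rplp2 had log2 differences of 0.62 ± 0.08 (adjusted p = 0.000248) and 0.86 ± 0.07 (adjusted p = 1.82e-05).

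Rps6 encodes the protein that S6 kinases phosphorylate downstream of mTOR. It was at 79.1, 75.5, 46.9, 63.7 and 72.3 TPM with HEL and at 30.9, 25.5 and 26.0 TPM in naive cells. No HEL library reached down to the naive range, and the log2 difference of 1.25 ± 0.15 (SE, adjusted p = 0.000151, limma) was the largest of the members. Rpsa, the small subunit protein also known as the laminin receptor, was at 273 ± 30.5 TPM (SD, n = 5) against 145 ± 17.6 TPM (SD, n = 3), with a log2 difference of 0.91 ± 0.10. Rps27a, made as a fusion with ubiquitin, rose from 12.8 to 14.4 TPM to 16.1 to 23.0 TPM.

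All 4 members on the X chromosome were higher without overlap. Rpl36a was at 2855, 2812, 2603, 2769 and 2618 TPM with HEL and at 1324, 1117 and 1079 TPM in naive cells, a narrow spread in each group, and its log2 difference was 1.22 ± 0.07 (adjusted p = 3.51e-06). Rps4x was at 1419, 1899.9, 1462, 1461 and 2469 TPM against 869, 717 and 749 TPM, with a log2 difference of 1.13 ± 0.17 (adjusted p = 0.000508). Its HEL libraries spread widely, with replicates 2 and 5 highest. Rpl10, which joins the large subunit last, had 0.74 ± 0.06, and Rpl39, at the exit of the peptide tunnel, had 0.49 ± 0.08. By the summed level of their Y-linked transcripts, the HEL libraries without Cre came from 3 female and 2 male mice and the 3 naive ones from male mice, and the part of sex in this comparison was not tested.

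Rps12 and Rpl9 followed among the largest differences. Rps12 was at 174, 193, 183, 157 and 257 TPM against 101, 81.1 and 85.5 TPM, with 1.09 ± 0.14 on the log2 scale. Rpl9 was low, at 25.1 to 34.4 TPM against 13.1 to 15.1 TPM, with 0.98 ± 0.10. The 5 members with the highest levels moved less: Rpl8 had 0.39, Rps21 0.43, Rps29 0.54, Rps9 0.58 and Rplp1 0.62, all of them called and none overlapping. In the 5S particle, whose proteins bind Mdm2 when ribosome assembly is disturbed, Rpl11 was at 2399 ± 168 TPM (SD, n = 5) against 1585 ± 158 TPM (SD, n = 3), a log2 difference of 0.60 ± 0.08. Rpl5 was at 2.01 to 2.65 TPM against 1.67 to 2.51 TPM, which overlapped, and was not called.

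The other 8 subunit genes tested were not called. Rpl34, Rpl13a, Rps16, Rps19, Rps13 and Rps24 had log2 differences of 0.32, 0.23, 0.36, 0.18, 0.27 and 0.62, all above 0 and above the median of all genes. Rps24 had the widest spread, 1612, 3149, 1407, 1524 and 3662 TPM with HEL against 1908, 1170.1 and 1119 TPM, and an SE of 0.33. The remaining ones were Rpl5 and Rps23. Rps23 was at 4.64, 11.8, 3.60, 4.44 and 9.68 TPM against 4.85, 8.88 and 7.78 TPM, with a log2 difference of -0.15, the one subunit gene below 0. These misses do not show that the genes did not differ.

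The paralogs did not all go with their counterparts. Rpl22l1 had a log2 difference of 0.89 ± 0.12, beside 0.63 ± 0.07 for Rpl22, and Rpl36al had 0.35 ± 0.06, beside 1.22 for Rpl36a. Rps4l went from 42.4, 36.4 and 33.7 TPM in naive cells to 26.0, 19.5, 28.8, 27.7 and 27.3 TPM with HEL, without overlap, a log2 difference of -0.53 ± 0.12 (adjusted p = 0.00564). Rps19bp1 had -0.33 ± 0.09 (adjusted p = 0.0146). Both calls were lost with median-ratio scaling. Rps27l at -0.08 and Rpl7l1 at -0.06 were not called. Rpl39l, at 0.57 to 5.30 TPM against 0.14 to 0.70 TPM, was called with overlapping groups at low levels, and of the pseudogenes Rpl31-ps12 and Rps15a-ps6 were called higher.

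**Figure D3:**
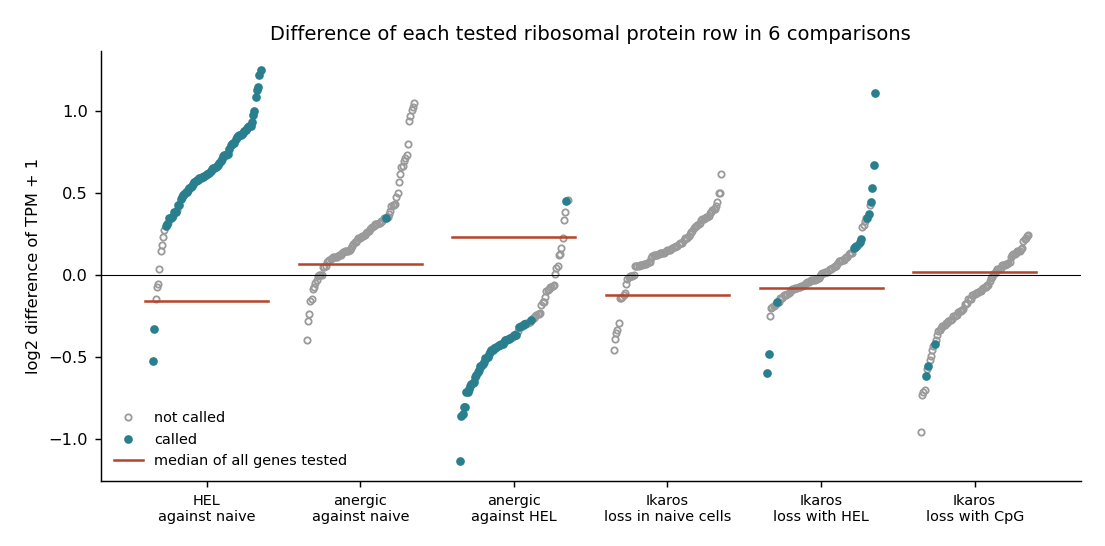
Difference on the log2(TPM + 1) scale (vertical axis) of each tested ribosomal protein gene in 6 comparisons (horizontal axis), ordered by size within each. Filled points were called by limma at an adjusted p under 0.05, open points were not, and red lines give the median of all genes tested. In HEL against naive 73 points are filled above 0, and in anergic against HEL 49 are filled below 0.

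Few ribosomal protein genes were called between anergic and naive cells. This comparison asks how lasting exposure to soluble HEL changed the cells, and it set the 3 anergic libraries against the same 3 naive libraries. Of 86 members tested, 1 was called higher and 0 lower, against 4.48% and 2.89% of all 10519 genes tested. At an unadjusted p under 0.05 there were 21 members, a count given without that over all genes. The members' median log2 difference was 0.23, that of all genes 0.07, and 15 members lay higher without overlap, where 19.7% of all genes did, and 1 lower, where 9.51% did. The called member was Rpl6, a large subunit protein, at 176, 162 and 178 TPM in anergic and 137, 131 and 136 TPM in naive cells. Its log2 difference was 0.35 ± 0.08 (SE, adjusted p = 0.0442, limma). The call was lost with median-ratio scaling, with scaling to other genes, with voom on recovered reads, and when any 1 of 5 of the 6 libraries was left out.

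One anergic library stood apart from the others. Replicate 2 was low for a group of members in which replicates 1 and 3 were far above naive cells: Rps4x was at 2472, 799 and 2089 TPM in replicates 1, 2 and 3 against 717 to 869 TPM in naive cells. Rps24 was at 4045, 1197 and 4205 TPM against 1119 to 1908 TPM, and Rps6 at 69.4, 28.7 and 75.6 TPM against 25.5 to 30.9 TPM. None of the 3 was called, with log2 differences of 1.05 ± 0.37, 1.01 ± 0.46 and 0.94 ± 0.32. Without replicate 2, 33 members were called higher and 0 lower, where 711 of all 10688 genes were called higher and 442 lower. The 3 libraries differ in genotype at Ikzf1, each being the only one of its kind, and its part in this spread was not tested. Their summed levels of 6 macrophage markers ran from 7.75 to 53.9 TPM, and the part of these cells was not tested.

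Compared with HEL given for 1 day, anergic cells held less of most ribosomal protein mRNAs. The 3 anergic libraries were set against the 5 HEL libraries without Cre, which share the HEL samples of the comparison above, so the 2 sets of differences are not independent. The HEL mice were all Ikzf1(fl/fl) without Cre, while the anergic mice differed in Ikzf1 genotype and Cre. By Y-linked transcripts the 3 anergic libraries came from male mice and the HEL ones from 3 female and 2 male mice. The part of genotype and sex in this comparison was not tested. Of 87 members tested, 49 were called lower and 1 higher, against 5.39% lower and 36.8% higher of all 10491 genes tested. The members' median was -0.37 and that of all genes 0.23. For 44 members the groups did not overlap in the lower direction, against 4.89% of all genes, and for 1 in the higher direction, against 34.1%. With median-ratio scaling the medians were -0.63 and -0.01, 59 members were called lower and 0 higher, and the calls over all genes moved from 3860 higher and 565 lower to 1073 and 1432. Marker lists also moved without overlap, with follicular B cell markers at 27169 to 29196 TPM in anergic cells against 24644 to 26619 TPM, plasma cell markers at 107 to 146 TPM against 72.3 to 94.3 TPM and cytotoxic markers at 16.4 to 22.8 TPM against 9.81 to 12.6 TPM, and their part was not tested.

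The large subunit gave 28 of 45 tested lower and the small subunit 18 of 31. All 3 stalk genes were lower without overlap. Rplp0 was at 2384, 2489 and 2724 TPM in anergic cells, where HEL cells held 4267 to 5188 TPM, and its log2 difference was -0.86 ± 0.09 (SE, adjusted p = 0.000187, limma). Rplp1 and Rplp2 had -0.58 ± 0.10 and -0.65 ± 0.09. Rpl36a was at 1656, 1250.1 and 1844 TPM against 2603 to 2855 TPM, with -0.80 ± 0.11. Rpl35 and Rpl32 of the large subunit had -0.71 ± 0.11 and -0.70 ± 0.09, and Rpl9 had -0.71 ± 0.17. Among the paralogs, Rpl22l1 fell, with -0.80 ± 0.17, and Rps19bp1 was the 1 member called higher, with 0.45 ± 0.10, a call that median-ratio scaling and voom on recovered reads ended.

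The members with the widest spread were not called between anergic and HEL cells. Rps4x had -0.08 ± 0.32, Rps6 -0.31 ± 0.28, Rps12 -0.29 ± 0.30 and Rps24 0.39 ± 0.44, and each overlapped. Of the X-linked genes Rpl36a alone was called. Rpsa had -0.48 ± 0.14 and Rpl11 -0.32 ± 0.11, and Rpl5, Rps27a, Rps27l and Rpl7l1 were not called. Set side by side for the stalk, the mean of Rplp0 was 2066 TPM in naive, 2532 TPM in anergic and 4595 TPM in HEL cells.

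**Figure D4:**
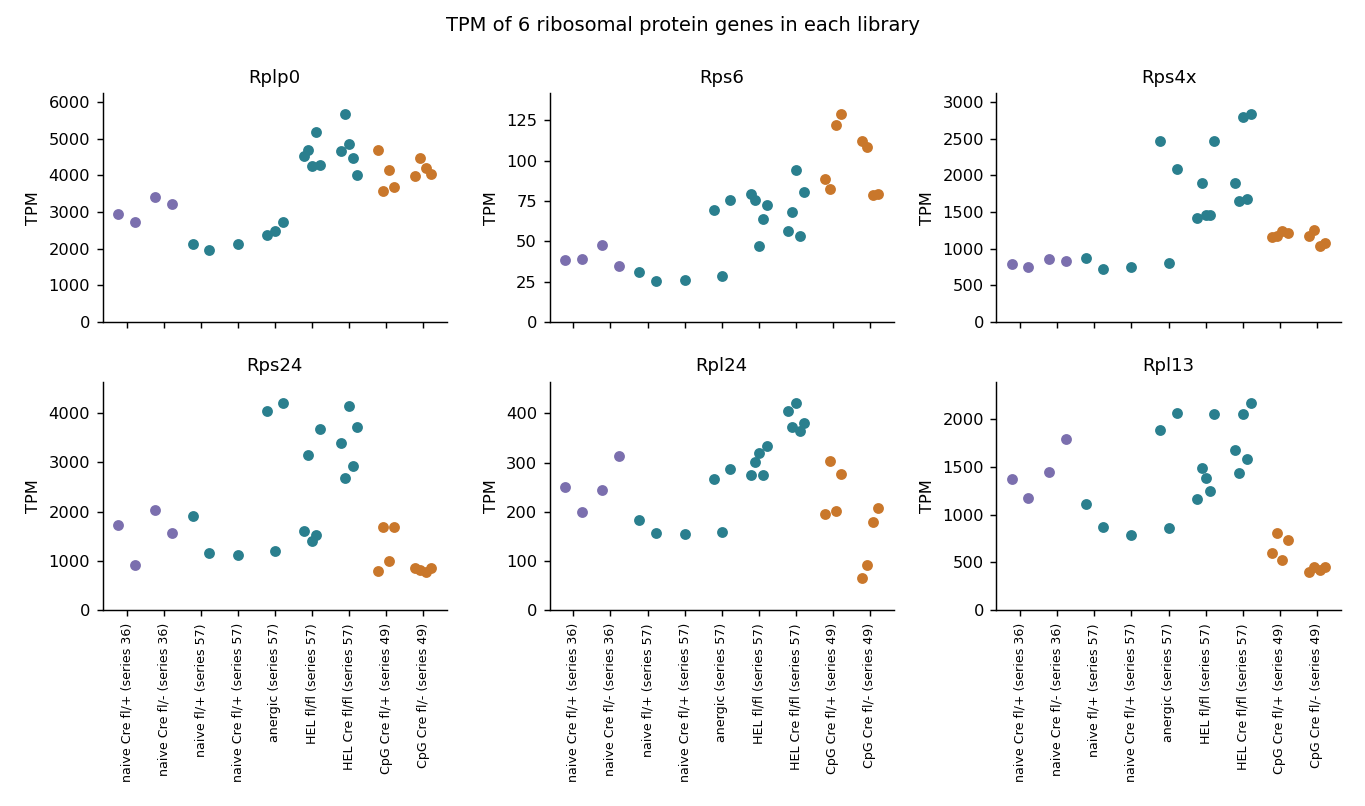
TPM (vertical axes, starting at 0) of 6 ribosomal protein genes in each of the 28 libraries, by group (horizontal axis), with colours for the library series. For Rplp0 the naive and anergic libraries of series 57 are at most at 2724 TPM and the HEL libraries at 4026 TPM or more. For this gene the CpG libraries overlap the HEL libraries, and HEL libraries with Cre overlap those without. Its naive libraries outside series 57 overlap the anergic ones. Rps24 and Rps4x spread widely inside the HEL and anergic groups, and Rpl24 is lowest in 2 CpG Cd23-cre Ikzf1(fl/-) libraries.

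Loss of Ikaros with HEL left most members within the spread of the libraries. The comparison asks what Ikaros contributes to the response to HEL, and it set 5 Cd23-cre Ikzf1(fl/fl) libraries against 5 Ikzf1(fl/fl) libraries without Cre. Of 87 members tested, 11 were called higher and 3 lower, against 12.9% and 24.1% of all 10258 genes tested, so the share of members called higher was near the background and the share called lower below it. Their median log2 difference was 0.01, and that of all genes -0.08. The libraries did not overlap for 4 members in the higher direction, against 9.27% of all genes, and for 1 in the lower, against 16.5%. The 11 called higher were 8 large and 3 small subunit genes, and the stalk and 5S genes were not called.

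Rps23, a protein of the decoding centre, had the largest difference. It was at 13.8, 12.0, 18.6, 12.1 and 17.4 TPM with Cre and at 4.64, 11.8, 3.60, 4.44 and 9.68 TPM without, so the groups stood just apart. The log2 difference was 1.11 ± 0.26 (SE, adjusted p = 0.0042, limma), on low counts. Rpl24, of the large subunit, was at 405, 371, 422, 363 and 379.7 TPM against 274, 301, 319, 274 and 333 TPM, again without overlap, with a smaller but tighter difference of 0.37 ± 0.07 (adjusted p = 0.000781).

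Rpl3, which lines the peptidyl transferase centre, was at 323, 307, 348, 272 and 335 TPM against 224, 251, 237, 251 and 279 TPM. The lowest library with Cre lay below the highest without, and the difference was 0.35 ± 0.07 (adjusted p = 0.0026). Rpl27a and Rpl7a had 0.53 ± 0.14 and 0.44 ± 0.12. Rps24 had 0.67 ± 0.25 with adjusted p = 0.0482, a call lost with a term for sex and without 8 of the 10 libraries in turn. Smaller differences were called for Rpl7 (0.22), Rpl15 (0.20), Rps3a1 (0.18), Rpl10 (0.17) and Rpl22 (0.17), and each was lost without at least 4 of the libraries in turn.

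The 3 members called lower were a subunit gene of low level and a pair of paralogs. Rps4l was at 15.9, 21.5, 20.2, 10.7 and 17.1 TPM with Cre against 26.0, 19.5, 28.8, 27.7 and 27.3 TPM, a log2 difference of -0.59 ± 0.16 (adjusted p = 0.0101). Rpl34 was at 4.66 to 7.88 TPM against 7.12 to 10.8 TPM, with -0.48 ± 0.14, and Rpl7l1 had -0.17 ± 0.05. The calls of Rpl34 and Rpl7l1 were lost with median-ratio scaling. Rps23, Rpl24, Rpl3, Rpl27a, Rpl7a and Rps4l kept their calls under all the alternatives run, leaving out each library included. Rps6 at 0.05 ± 0.16, Rplp0 at 0.04 ± 0.09, Rplp1 at -0.08 ± 0.08 and Rps4x at 0.31 ± 0.19 were not called. Along with these differences the summed level of the 6 macrophage markers was 27.8 to 37.9 TPM with Cre and 11.1 to 14.7 TPM without. Plasma cell markers summed to 123 to 158 TPM against 72.3 to 94.3 TPM, marginal zone B cell markers to 62.7 to 83.4 TPM against 126 to 163 TPM and cytotoxic markers to 4.77 to 8.95 TPM against 9.81 to 12.6 TPM, none overlapping. The part of these cells was not tested.

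Several of the called members rose and fell together among libraries of 1 group. Within the groups Rps24 had the largest SD of the 79 members with a mean of 20 TPM or more, 0.55 on the log2 scale. In the HEL libraries without Cre, replicates 2 and 5 held 3149 and 3662 TPM of it and the other 3 held 1407 to 1612 TPM. In the anergic group replicates 1 and 3 held 4045 and 4205 TPM and replicate 2 held 1197 TPM. Rps15a was at 83.4, 139, 88.1, 99.3 and 216 TPM in the same 5 HEL libraries and at 195, 65.7 and 201 TPM in the 3 anergic ones, with the same libraries high.

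Over the 13 HEL and anergic libraries, after subtracting group means, 17 other members had a Pearson correlation of 0.8 or more with Rps24. They were led by Rpl17 at 0.97, Rps15a at 0.95, Rpl27a at 0.93, and Rpl7 and Rps4x at 0.92. Rplp1 ran the other way, at -0.72, as 1 of 4 members at -0.5 or below, and the median over the members was 0.49. These correlations are descriptions, since the libraries also share depth and preparation. Of the 11 members called higher after Ikaros loss with HEL, 10 had a mean of 20 TPM or more, Rps24 itself among them, and the correlations of the others with it ran from 0.49 upward, with a median of 0.82. The part of this shared variation in the calls was not tested.

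**Figure D5:**
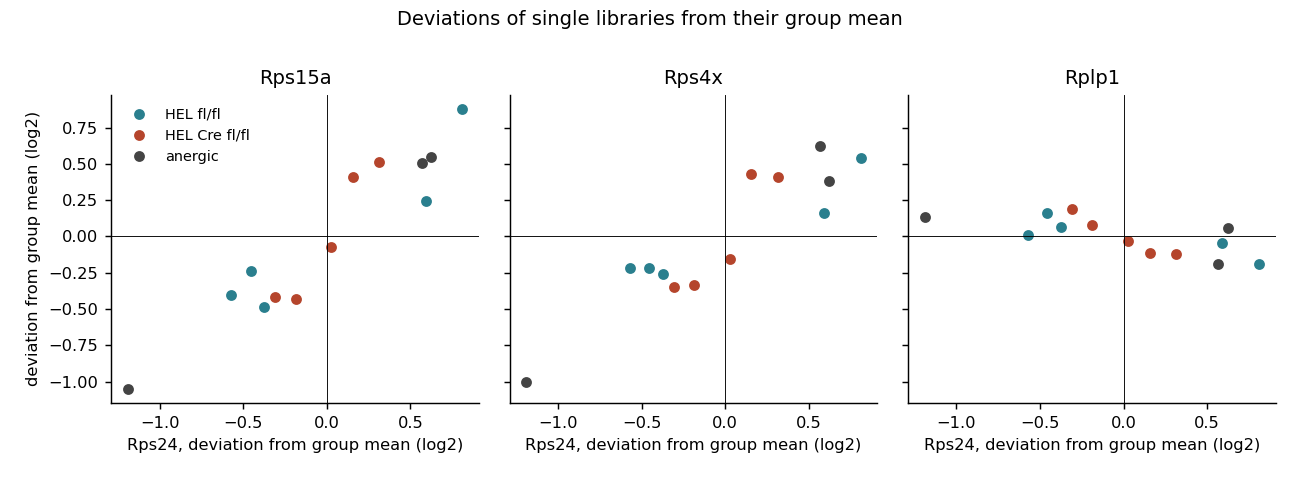
Deviation of each HEL and anergic library from the mean of its group on the log2 scale, for Rps24 (horizontal axes) and for Rps15a, Rps4x or Rplp1 (vertical axes), with 1 point per library and colours for the groups. Rps15a and Rps4x rise with Rps24 (correlations of 0.95 and 0.92), Rplp1 falls (-0.72), and anergic replicate 2 lies at the far left.

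With CpG, few members were called with loss of Ikaros. The comparison asks what Ikaros does under Toll-like receptor stimulation, and it set 4 Cd23-cre Ikzf1(fl/-) libraries against 4 Cd23-cre Ikzf1(fl/+) libraries, so both arms carry Cre and the control has 1 intact allele. Of 87 members tested, 0 were called higher and 3 lower by limma, against 9.14% and 5.80% of all 10386 genes tested. In both directions the share of members called lay below that of all genes. At an unadjusted p under 0.05 there were 21 members, and the count over all genes at that threshold is not given here. The members' median was -0.12 and that of all genes 0.02. The libraries did not overlap for 4 members in the higher and 5 in the lower direction, against 12.9% and 8.48% of all genes. With a term for the run of library numbers, split as described below, 7 members were called lower and 0 higher, where 939 of all 10386 genes were called lower and 1282 higher. Cytotoxic markers summed to 1.56 to 2.03 TPM in Cd23-cre Ikzf1(fl/-) and to 2.91 to 5.84 TPM in Cd23-cre Ikzf1(fl/+), and their part was not tested.

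Rpl13 was at 398, 452, 419.6 and 452 TPM in Cd23-cre Ikzf1(fl/-) and at 603, 807, 529.6 and 733 TPM in Cd23-cre Ikzf1(fl/+), without overlap. Its log2 difference was -0.62 ± 0.13 (SE, adjusted p = 0.0132, limma). Rpl17, near the exit of the peptide tunnel, was at 33.6, 37.7, 32.2 and 30.3 TPM against 51.2, 52.0, 40.1 and 56.5 TPM, with -0.56 ± 0.11 (adjusted p = 0.0126). Rps12 was at 90.0, 115, 100.1 and 112 TPM against 134, 144, 124 and 158 TPM, with -0.42 ± 0.10 (adjusted p = 0.0252), a call that was lost without any 1 of 4 libraries. All 3 are members with named pseudogenes, 6 for Rpl13, 11 for Rpl17 and 23 for Rps12, and Rpl13 is marked as overlapping another gene model. Named pseudogenes are common among the 77 subunit genes, of which 38 have 1 to 4 and 24 have 5 or more.

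The library numbers of the CpG samples are consecutive. They were split here into a first and a second run, each with replicates 1 and 2 or 3 and 4 of both genotypes. The labels do not name these runs as batches. Within the first run the differences were -0.72 for Rpl13, -0.52 for Rpl17 and -0.45 for Rps12, and within the second run -0.52, -0.59 and -0.40. The first 2 Cd23-cre Ikzf1(fl/-) libraries stood apart from the other CpG libraries in other members. Rpl24 was at 66.2, 92.2, 180.2 and 207 TPM in replicates 1 to 4 of Cd23-cre Ikzf1(fl/-) and at 196, 303, 201 and 276 TPM in Cd23-cre Ikzf1(fl/+). Between the runs it differed by -1.29 in Cd23-cre Ikzf1(fl/-) and by 0.05 in Cd23-cre Ikzf1(fl/+), and it was not called (-0.96 ± 0.34, adjusted p = 0.0982). Rpl32 differed between the Cd23-cre Ikzf1(fl/-) runs by -1.11 and Rpl23 by -0.75. In all, 12 of 82 members differed by over 0.5 between the runs in Cd23-cre Ikzf1(fl/-), 10 of them lower in the first, and 1 of 82 in Cd23-cre Ikzf1(fl/+). The same count over all genes is not given here, so these counts do not set the members apart from other genes. Without these first 2 libraries 2 members were called lower and 0 higher, where 311 of all 10598 genes were lower and 372 higher, a count chosen after seeing the data.

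The Cd23-cre Ikzf1(fl/+) libraries also fell into pairs in some members. Rpl36a was at 1034, 2210.1, 1227 and 1882 TPM in replicates 1 to 4 and Rps24 at 796, 1685, 1008 and 1681 TPM, with replicates 2 and 4 high, while Rplp1 was at 22728, 15017, 18331 and 14726 TPM, with the same 2 replicates low. Stalk genes did not differ by more than the spread with Ikaros loss: Rplp0 was at 3992 to 4464 TPM against 3583 to 4701 TPM.

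The effect of Ikaros loss differed between CpG and HEL for 11 members. An interaction term in 1 fit over the 18 HEL and CpG libraries called 10 members lower and 1 higher of 87 tested, against 7.19% and 15.2% of all 11050 genes tested. The log2 difference of the effects, CpG minus HEL, was -1.51 ± 0.42 (SE, adjusted p = 0.0166, limma) for Rps23, -1.33 ± 0.34 for Rpl24 and -1.24 ± 0.38 for Rps24. Rps23 was higher without Ikaros under HEL, and under CpG it was at 16.6, 15.2, 10.8 and 20.7 TPM against 12.5, 30.4, 16.6 and 28.5 TPM. Rpl13 had -0.91 ± 0.22, Rpl17 -0.90 ± 0.24 and Rps12 -0.75 ± 0.18, the 3 members called lower with CpG. Rps16, Rpl7a, Rpl3 and Rpl6 had -0.64, -0.56, -0.42 and -0.40, and Rps27l had 0.25, which 3 other scalings or tests ended. Without the first 2 CpG Cd23-cre Ikzf1(fl/-) libraries 5 members were called lower and 0 higher, where 758 of all 10898 genes were lower and 1172 higher. The controls of the 2 stimuli differ in genotype and Cre, and the stimulus and the library series cannot be told apart.

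Single members that separated the 8 CpG libraries from the other 20 are given as a description. The summed share of the CpG libraries lay below that of all HEL libraries and of the naive libraries of series 36, and overlapped that of the anergic libraries. It lay above that of the naive libraries of series 57 in all 8 CpG libraries. Of 82 members with a mean of 5 TPM or more, 10 were higher in all 8 CpG libraries than in any other library and 8 were lower than in any other, where 33.9% and 12.9% of 8563 genes were. Rps27l was at 615 to 762 TPM with CpG and at 109 to 175 TPM elsewhere, 5.52 times the mean. Rpl34 was at 40.4 to 63.7 TPM against 3.51 to 12.0 TPM, 7.01 times, and Rps2 at 1534 to 1804 TPM against 476 to 927 TPM, 2.32 times. The other members above were Rpl27, Rpl30, Rpl15, Rpl29, Rps27a and the paralogs Rpl7l1 and Rps19bp1. Rpl17 was at 30.3 to 56.5 TPM against 70.8 to 228 TPM, 0.28 times, and Rps16 at 1072 to 2190.4 TPM against 2334 to 4781 TPM, 0.40 times. Rpl10a, Rpl19, Rpl37a, Rpl13a, Rps15 and Rps10 were the other members below. Mitochondrial ribosomal protein genes made up 1.17 to 1.38% of TPM in the CpG libraries and 0.502 to 0.699% in the others.

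In naive cells no member was called with loss of Ikaros. The 2 Cd23-cre Ikzf1(fl/-) libraries were set against 2 Cd23-cre Ikzf1(fl/+) libraries of series 36, and of 87 members limma called 0 in either direction, against 0.0199% of all 10053 genes tested higher and 0% lower. At an unadjusted p under 0.05 there were 7 members, all higher, a count given without that over all genes. Among these 7 members were Rpl17, Rpl27a, Rps16, Rpl7a, Rpl13 and Rps28, with log2 differences of 0.50, 0.41, 0.36, 0.35, 0.34 and 0.32. The members' median was 0.15 and that of all genes -0.12, and with median-ratio scaling 0.26 and -0.01. Rplp0 was at 3410.3 and 3213 TPM against 2948 and 2716 TPM and Rpl22 at 639 and 696 TPM against 615 and 414 TPM. Neither pair overlapped, nor did those of 40 members in the higher direction, against 11.8% of all genes, and 6 in the lower, against 28.8%.

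Genes that work with the ribosome were described from lists chosen with earlier results of these data known. Of 36 translation factors and other TOP mRNAs, 22 were called higher and 7 lower with HEL against naive, with a median of 0.38. With median-ratio scaling the counts were 27 and 2. Of all 10448 genes tested 9.92% were called higher and 38.1% lower, and 2214 and 2004 genes with that scaling. Eef1a1, which brings tRNA to the ribosome, was at 8066 ± 749.8 TPM (SD, n = 5) against 3815 ± 354 TPM (SD, n = 3), a log2 difference of 1.08. Its exchange factor subunits Eef1b2 and Eef1g had 0.93 and 0.91, and the nucleolar chaperone Npm1 had 0.95. Of the ribosomal proteins outside the name rule, Gnb2l1 had 0.88 (adjusted p = 3.61e-05) and Fau 0.07, which was not called. Between anergic and HEL cells the list of 36 had 10 higher and 15 lower (3 and 22 after scaling by median ratios). Of all genes 36.8% were called higher and 5.39% lower there. With Ikaros loss under HEL 6 were higher and 6 lower (12 and 2 after that scaling), where 12.9% and 24.1% of all genes were. Under CpG 2 were higher and 0 lower (1 and 0), where 9.14% and 5.80% of all genes were. Over all genes that scaling gave 1073 and 1432 of 10491, then 1768 and 1708 of 10258, then 836 and 747 of 10386.

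Of 24 tested regulators of TOP translation, S6 kinase and the Myc network, 3 were called higher and 10 lower with HEL against naive, where 9.92% and 38.1% of all genes were, with a median of -0.09, and 6 and 6 with median-ratio scaling, where the median was 0.10. Mxd4, an antagonist of Myc, had 1.56, while Mnt, another, had -0.74, Eef2k, the kinase that inhibits elongation factor 2, -0.79 and Larp1 -0.68. In anergic against HEL cells 12 were higher and 1 lower (5 and 3 after scaling by median ratios), where 36.8% and 5.39% of all genes were, with Eef2k at 0.76, Mnt at 0.75, Myc at 0.74 and Larp1 at 0.72. With Ikaros loss Eef2k was higher in both states, at 0.84 under HEL and 1.31 under CpG. Myc was lower under HEL, at 28.5 ± 6.98 TPM against 49.7 ± 8.72 TPM (SD, n = 5), and higher under CpG, at 290.4 ± 29.9 TPM against 206 ± 22.9 TPM (SD, n = 4). Its interaction was 1.29 (adjusted p = 0.000305, limma).

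Chaperones and import factors of ribosomal proteins form a list of 13. Of these, 0 were called higher and 8 lower with HEL against naive, 10 higher and 0 lower in anergic against HEL cells, and 0 higher and 9 lower with Ikaros loss under HEL. Of all genes 38.1% were called lower, 36.8% higher and 24.1% lower in the same comparisons. With median-ratio scaling these counts were 0 and 5, 4 and 1, and 0 and 8, and the medians moved from -0.25 to -0.07, from 0.34 to 0.08 and from -0.32 to -0.26. Grwd1, which escorts Rpl3, was at 14.9 ± 1.43 TPM with Cre and 25.6 ± 1.92 TPM without (SD, n = 5), a log2 difference of -0.74. Pno1 and Ltv1, which are assembly factors of the small subunit and no chaperones, had -0.64 and -0.45, and Sqstm1, an autophagy receptor, -0.41. In the interaction 8 of the 13 were higher and 0 lower, with Grwd1 at 1.00 and Pno1 at 0.74. There 15.2% of all genes were called higher and 7.19% lower. Of 76 mitochondrial ribosomal protein genes 15 were called higher and 13 lower with HEL against naive, with a median of 0, but 37 and 0 with median-ratio scaling, where the median was 0.18, and 25 and 5 with scaling to other genes. With Ikaros loss under CpG 17 were higher and 1 lower (9 and 1 after scaling by median ratios). Of all genes 9.92% were called higher and 38.1% lower with HEL against naive, and 9.14% and 5.80% with Ikaros loss under CpG. Median-ratio scaling gave 2214 and 2004 of 10448 genes, and 836 and 747 of 10386. Fau, outside the name rule, was lower with Ikaros loss under CpG, at 204 ± 16.6 TPM against 295 ± 32.9 TPM (SD, n = 4), a log2 difference of -0.53 (adjusted p = 0.00724).

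The genes most like the members across libraries were found by correlating each of 5434 other genes of 20 TPM or more with the mean of 73 members, after subtracting group means, over the 28 libraries. The highest were Eef1b2 at a Pearson correlation of 0.91, Commd1 at 0.90, Eif3h at 0.88, Lage3 at 0.87 and Fau at 0.86, followed by Cox4i1, Pfdn5, Fam96a, Polr1d and Btf3, the last at 0.82. The median over all genes compared was -0.20. Anergic replicates 2 and 3 deviated most from their group in the members' mean, by -0.29 and 0.22 on the log2 scale, where no other library deviated by more than 0.088.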

How the data were processed

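RNA-seq of 28 of the 40 samples was used; the other 12 (ATAC-seq and ChIP-seq) are not analysed here. The authors deposited TPM values per gene, 24732 genes a sample. Per the submitters' processing notes, the tools were featureCounts 1.5.0, TopHat 1.4.1 with Bowtie, deepTools 3.0.1 and SAMtools 1.4, on build mm9; their roles, the annotation, strand and multi-mapping settings are not given in the sources used here. A gene was tested if the number of libraries at 1 TPM or above reached the size of the smaller group (4 for the interaction). The test was limma's (version 3.58.1, R 4.3.3), run two-sided on log2(TPM + 1) with a trended variance and Benjamini-Hochberg adjustment over all genes tested. Fold changes on that scale understate the change of low genes. Whole reads were recovered from the TPM steps for 18843 of 18843 genes (tolerance 0.01 reads). These reads served for depth, and for a voom fit as an alternative. Tables and figures were made with Python 3.11.15, pandas 2.3.3, numpy 2.4.6 and matplotlib 3.10.9. The fits were tested on simulated data. Named members were the 5 highest in level and, per comparison, up to 6 called in each direction at 5 TPM or more, beside the role groups, with up to 4 genes for each other list; further members named for how they moved or did not were chosen after their values were seen. Members and lists were chosen with earlier results of these data known. Alternatives were another pseudocount, no filter, other scalings, voom, terms for sex and library number, and leaving out each library. Leaving out the first 2 CpG Cd23-cre Ikzf1(fl/-) libraries was chosen after seeing the data.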

Additional observations from a re-analysis of the deposited data

Results flagged for a closer look

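In 6 of 160 groups of 4 or 5 libraries (3.8%) the highest or lowest library stood far from the others; chance gives about 1 in 20. Rpl10 was lowest in HEL Ikzf1(fl/fl) replicate 4, at 184 TPM. Rpl10a was highest in HEL Ikzf1(fl/fl) replicate 2, at 158 TPM. Rpl8 was highest in HEL Ikzf1(fl/fl) replicate 4, at 11931 TPM. Rpl39 was highest in CpG Cd23-cre Ikzf1(fl/+) replicate 2, at 662 TPM. Rplp2 was lowest in CpG Cd23-cre Ikzf1(fl/-) replicate 1, at 3329 TPM, and highest in CpG Cd23-cre Ikzf1(fl/+) replicate 1, at 3838 TPM.

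The effect of Ikaros loss differed between CpG and HEL for 11 members by limma's interaction term, 1 higher and 10 lower of 87, where 15.2% of all 11050 genes were called higher and 7.19% lower. The difference (CpG minus HEL, log2) was -1.51 for Rps23, -1.33 for Rpl24, -1.24 for Rps24, -0.91 for Rpl13, -0.90 for Rpl17, -0.75 for Rps12, -0.64 for Rps16, -0.56 for Rpl7a, -0.42 for Rpl3, -0.40 for Rpl6 and 0.25 for Rps27l.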

How the results depend on the processing

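No call of a member changed direction under the alternatives run, while the difference in summed share with Ikaros loss crossed 0 when single HEL or CpG libraries were left out. Of 2169 alternatives to 154 calls of members, 1964 kept the call. The next counts leave aside the fit without both first CpG Cd23-cre Ikzf1(fl/-) libraries, which was chosen after seeing the data. Calls kept under all other alternatives were 64 of 75 in HEL against naive, 29 of 50 in anergic against HEL, 6 of 14 in Ikaros loss with HEL, 2 of 3 with CpG, 5 of 11 in the interaction and 0 of 1 in anergic against naive. With median-ratio scaling the calls over all genes moved from 1321 higher and 2469 lower to 1768 and 1708 in Ikaros loss with HEL (members 13 and 1), from 949 and 602 to 836 and 747 with CpG, from 1685 and 794 to 1353 and 1063 in the interaction, and from 471 and 304 to 410 and 442 in anergic against naive. Without the filter on low values 8 members were called in Ikaros loss with HEL, where 1583 of all 17420 genes were higher and 2418 lower. With the library-number term 7 members were called with CpG, where 1282 of all 10386 genes were higher and 939 lower. Anergic against naive gave 0 with median-ratio scaling, with scaling to genes that are neither members nor immunoglobulin genes, and with voom. Without both first-run CpG Cd23-cre Ikzf1(fl/-) libraries the interaction gave 5, where 1172 of all 10898 genes were higher and 758 lower. Leaving out 1 library at a time gave 8 to 16 members in Ikaros loss with HEL, 2 to 5 with CpG, 0 to 33 in anergic against naive, 68 to 78 in HEL against naive, 36 to 58 in anergic against HEL and 7 to 15 in the interaction. Over all genes these fits called 1135 to 1361 higher and 2020 to 2538 lower in Ikaros loss with HEL. With CpG the ranges were 587 to 1145 and 322 to 762. In anergic against naive they were 199 to 711 and 124 to 442, and in HEL against naive 794 to 1129 and 3004 to 4151. In anergic against HEL they were 2422 to 4629 and 378 to 663, and in the interaction 1322 to 1846 and 665 to 949. The counts moved by over 1.5 times without HEL Ikzf1(fl/fl) replicate 1 (9) or 4 (8) or HEL Cd23-cre replicate 1 (8) in Ikaros loss with HEL, without CpG Cd23-cre Ikzf1(fl/+) replicate 1 or Cd23-cre Ikzf1(fl/-) replicate 4 (5 each) with CpG, and without CpG Cd23-cre Ikzf1(fl/-) replicate 1 or Cd23-cre Ikzf1(fl/+) replicate 4 (7 each) in the interaction. As a share of recovered reads, HEL exceeded naive by 3.52 points and anergic minus HEL was -2.78 points. Leaving out 1 library, the summed share differed by -0.69 to 0.06 points in Ikaros loss with HEL, -0.58 to 0.03 with CpG, 0.98 to 3.21 in naive cells, 1.11 to 2.91 in anergic against naive, 7.61 to 8.20 in HEL against naive and -6.76 to -4.95 in anergic against HEL. A term for sex could be fitted in Ikaros loss with HEL and in naive cells. No paired analysis was possible because the labels carry no replicate numbers. Genes with few reads, such as Rps23, are limited by depth.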
